A study of Homo sapiens with 12 samples.

Results

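MAGED4B, XAGE1B, SERF1B, BOLA2B and SMIM11A are 5 protein-coding genes that each have a near-identical copy annotated elsewhere in the human reference genome. They were taken by name from the genes listed for breast cancer cells that transited capillary-sized constrictions, and they were chosen with those results known. The authors listed 381 genes for MDA-MB-231 and 97 genes for LM2, together 466 different genes, and the 5 genes are 2 of the first and 3 of the second. All tables of the series together hold 3090 different genes. A gene is listed only if the authors' own comparison of the same libraries gave an unadjusted p-value under 0.05, so the difference between constriction and control had already selected the 5 genes and is given here as a description, with no test.

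RNA was sequenced from 12 samples, 2 after constricted transit and 2 controls for each of 3 human cell lines. MDA-MB-231 is a metastatic triple negative breast cancer line, LM2 is its derivative selected for growth in the lung, and MCF-10A is an immortalised line of breast epithelium that is not malignant. In the constriction groups, hydrostatic pressure of 7 to 33 cmH2O drove the cells through microchannels with a width and a height of 5 µm and a length of 150 µm, and cells leaving many chips were collected together. The control cells of each line did not transit a channel. The study's methods describe the 2 samples of a group as biological replicates of a cell line, and they record much less RNA from constriction than from control cells of MDA-MB-231 and LM2. For MCF-10A they record less in replicate 1 and more in replicate 2. The part of RNA amount in the results was not tested. Total reads behind a library, computed from counts, FPKM and gene lengths, ran from 29978695 to 53584754. None of the 9 marker genes checked for these lines (among them VIM, CD44, CDH1, EPCAM and KRT5) is listed in any of the 3 tables, so cell identity could not be read from them.

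Segmental duplication leaves long stretches of a chromosome present more than once, and genes inside them become paralogs that can encode the same protein. A short read from a stretch that the copies share fits both equally well. How it is then counted depends on the aligner and counter, and the setting for reads with several alignments is not given in the sources used here. All values below are therefore counts assigned to the named copy, and not necessarily RNA from that copy alone.

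The reference transcripts of GENCODE version 29 on GRCh38 showed how alike the copies are. Positions and exon lengths of all 5 genes in the deposited tables were the same as in that annotation. MAGED4B lies on chrX:52061827-52069248, minus strand, and its twin MAGED4 is 115574 bases away on the plus strand at chrX:52184823-52192268. XAGE1B (chrX:52512077-52520803, minus) and XAGE1A (chrX:52495676-52500812, plus) are the closest pair, with 11264 bases between them. SERF1B (chr5:70025247-70043113, plus) lies in the duplicated block that also holds the SMN genes, and SERF1A is at chr5:70900665-70918530 on the same strand. BOLA2B (chr16:30192934-30194306, minus) and BOLA2 (chr16:29443056-29454964, minus) lie in the duplicated part of 16p11.2. SMIM11A (chr21:34375480-34407866, plus) and SMIM11B (chr21:7744962-7777853, plus) lie on the same chromosome with 26.6 megabases between them. These are positions in the reference, and whether the cell lines carry both copies of a pair was not tested.

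The first 90 coding bases of 1 transcript of each gene are shown on the gene's own strand. Chosen was the longest coding sequence that stands letter for letter in the twin: MAGED4B-207, XAGE1B-203, SERF1B-201, BOLA2B-201 and SMIM11A-203. The genes have 2 to 5 different coding sequences each, so other transcripts can start otherwise. SMIM11A-203 has 204 coding bases, beside 174 in SMIM11A-201 and SMIM11A-202. BOLA2B-201 has 456, beside 264 in BOLA2B-203. Capitals mark the start codon. The MAGED4B stretch is chrX:52068083-52068172, the XAGE1B stretch chrX:52515438-52515527 and the BOLA2B stretch chr16:30193704-30193793, each within 1 exon. The SERF1B and SMIM11A stretches are spliced from 2 exons and span chr5:70025452-70026489 and chr21:34379505-34399788.
MAGED4B: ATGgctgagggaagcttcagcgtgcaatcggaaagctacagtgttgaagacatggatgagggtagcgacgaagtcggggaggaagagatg
XAGE1B: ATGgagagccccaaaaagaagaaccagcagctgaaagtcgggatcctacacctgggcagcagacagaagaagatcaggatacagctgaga
SERF1B: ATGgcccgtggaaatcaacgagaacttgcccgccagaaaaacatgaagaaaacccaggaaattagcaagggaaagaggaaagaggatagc
BOLA2B: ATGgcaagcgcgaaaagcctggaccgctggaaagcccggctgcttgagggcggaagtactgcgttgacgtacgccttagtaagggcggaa
SMIM11A: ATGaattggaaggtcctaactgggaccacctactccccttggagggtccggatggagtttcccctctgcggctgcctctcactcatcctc
Among all annotated transcripts, 4 of these stretches occur in the gene and its twin alone. The BOLA2B stretch occurs in BOLA2B, in BOLA2 and in the read-through gene BOLA2-SMG1P6.

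Identity went far beyond these stretches. Of 16 different coding sequences annotated for the 5 genes, 15 were present without a change in a transcript of the twin, and the exception was 1 of the 3 of BOLA2B. Local alignment of 19 coding transcripts to their best twin transcript gave 22650 identical bases of 22653 aligned. The figure covers the aligned parts alone: 12 of the 19 transcripts aligned over their whole length, 1 aligned with gaps, and BOLA2B-203 aligned over 264 of its 687 bases. The 3 mismatches all lay in transcripts of SERF1B and were the same base. Counted from 1 at the 5′ end of the 1889-base transcript SERF1B-201, it is C759T in SERF1A-202, and it falls in the 3′ UTR after the coding sequence that ends at base 513. The mismatch is shown with 10 bases on either side, in capitals.
SERF1B: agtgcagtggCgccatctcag
SERF1A: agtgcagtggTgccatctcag
The RefSeq promoters (GRCh38.p14, 300 bases around each annotated start) were matched for all 5 pairs, SMIM11A under its symbol SMIM11 and SMIM11B as LOC102723553. The best-aligned promoters of each pair shared 273 to 300 bases with 0 mismatches.

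Sequencing was in reads of 150 bases, so transcripts were cut into all their windows of that length. For MAGED4B, 6259 of 6531 windows (95.8%) also occur in MAGED4. The share was 94.5% for SERF1B and SERF1A and 93.3% for SMIM11A and SMIM11B. XAGE1B shared 76.3% of its windows with XAGE1A, while every window of XAGE1A occurs in XAGE1B. BOLA2B shared the smallest part with its twin, 58.0%, and another 28.4% of its windows occur in BOLA2-SMG1P6 or in SLX1B. For SMIM11A, 6.36% of the windows occur in FAM243B and not in SMIM11B. Windows found in no gene elsewhere made up 23.7% of XAGE1B, 13.6% of BOLA2B, 5.51% of SERF1B, 4.16% of MAGED4B and 0.346% of SMIM11A. Such windows can differ through annotated exon ends and splicing alone, since the genome sequence was not used here. BOLA2B also overlaps exons of SLX1A and SLX1A-SULT1A3 on the opposite strand, and MAGED4B holds the small RNA gene SNORA11E. Whether counting used the strand is not given in the sources used here.

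**Figure D1:**
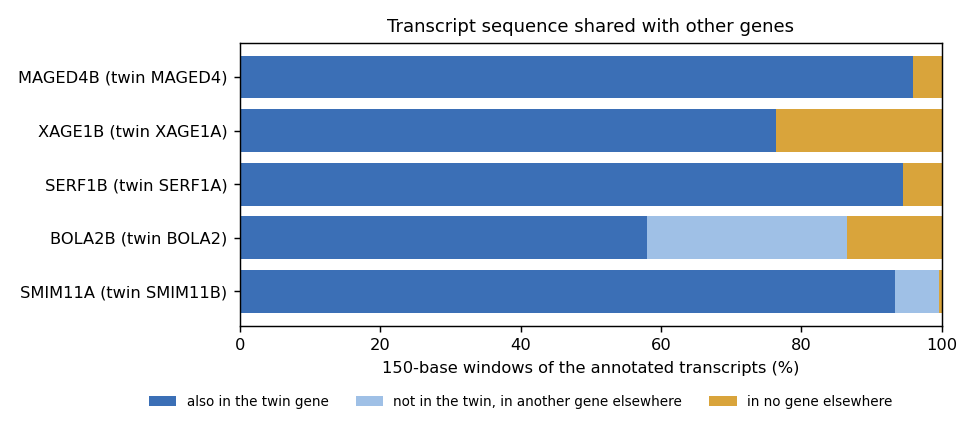
Share of the 150-base windows of each gene's annotated transcripts (x axis, percent) that also occur in the twin gene (dark blue), only in other genes elsewhere (light blue), or in no gene elsewhere (yellow). The part in no gene elsewhere runs from 0.346% for SMIM11A to 23.7% for XAGE1B.

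None of the 5 twins (MAGED4, XAGE1A, SERF1A, BOLA2 and SMIM11B) is listed in any of the 3 tables, and neither are the other symbols SMIM11 and BOLA2A. Each difference below was thus recorded for 1 copy of a pair. The tables give no counts for genes that are not listed, so neither the level of the twin nor the sum over the pair was available, and a difference between the copies was not tested.

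Across the 5 genes, 3 had higher and 2 had lower counts after constricted transit. MAGED4B, XAGE1B and SERF1B were higher, by a factor of 11.21, 6.02 and 3.28 in mean normalised count. SMIM11A and BOLA2B were lower, by a factor of 13.4 and 8.67. For all 5, the 4 libraries split cleanly, with both constriction values above, or both below, the 2 control values. Among all genes listed, such a split was found for 94.5% of those of MDA-MB-231 and 82.5% of those of LM2, and nothing is read from the members' count because the tables were selected on this contrast. The nearest libraries of opposite groups differed 1.34-fold for SMIM11A, 1.38-fold for BOLA2B, 1.96-fold for SERF1B, 2.26-fold for XAGE1B and 2.42-fold for MAGED4B. For SMIM11A these nearest libraries had 29 and 19 reads, and for BOLA2B 26 and 20. Whether such gaps exceed counting error was not tested.

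**Figure D2:**
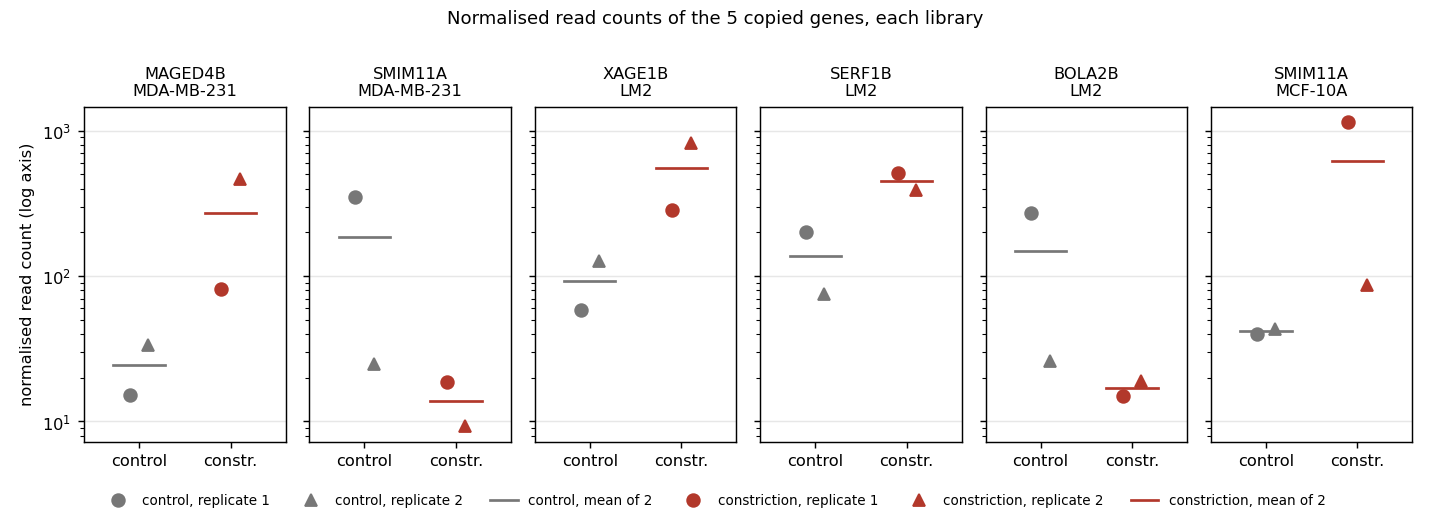
Normalised read count (y axis, log scale) of each gene in each of the 4 libraries of a cell line, controls in grey and constriction in red, circles for replicate 1 and triangles for replicate 2, lines for the mean of 2. The groups do not overlap in any panel, but MAGED4B, BOLA2B and, in both lines, SMIM11A have 1 library far above the other 3.

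MAGED4B belongs to the type II MAGE proteins, which bind RING-type E3 ubiquitin ligases. In MDA-MB-231 its normalised count was 15.2 and 33.5 in control replicates 1 and 2 and 81.1 and 466 in constriction replicates 1 and 2, from 12, 39, 83 and 504 reads. Every constriction value was above both controls, and constriction replicate 2 stood far above the rest with 78.2% of the normalised count of all 4 libraries. The mean was 273 ± 272 (SD, n = 2) after constriction and 24.4 ± 12.95 (SD, n = 2) in controls. On the scale of log2(mean normalised count + 1), the difference was 3.43 ± 1.14 (SE from the spread between libraries). Without constriction replicate 2 it was 1.69. Between libraries of the same replicate number it was 2.34 for number 1 and 3.76 for number 2.

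XAGE1B encodes a cancer-testis antigen, a kind of protein normally restricted to germ cells of the testis and found again in some tumours. In LM2 its normalised count was 58.2 and 126 in the controls and 285 and 825 after constriction, from 66, 125, 246 and 865 reads. The lower constriction library was 2.26-fold above the higher control. Mean values were 555 ± 382 (SD, n = 2) and 92.2 ± 48.1 (SD, n = 2), a log2 difference of 2.58 ± 0.88 (SE). Both replicate numbers showed it, with 2.27 and 2.70. It fell to 1.62 without constriction replicate 2 and rose to 3.23 without control replicate 2.

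SERF1B encodes a small EDRK-rich factor, a short charged protein of a family that speeds up the aggregation of amyloid-forming proteins. Its LM2 values were the most even of the 5 genes. Normalised counts were 200 and 75.7 in the controls and 510 and 393 after constriction, from 227, 75, 441 and 412 reads. Both constriction libraries were at least 1.96-fold above the higher control, and no library held more than 43.3% of the total. The means were 452 ± 82.9 (SD, n = 2) and 138 ± 87.9 (SD, n = 2), and the log2 difference was 1.70 ± 0.67 (SE). It was 1.35 for replicate number 1 and 2.36 for number 2, and lay between 1.17 and 2.56 with any 1 library left out.

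The genes that were lower after transit owed most of their difference to 1 control library each. BOLA2B encodes a BolA protein that works with the glutaredoxin GLRX3 in handing over iron-sulfur clusters in the cytosol. In LM2 it had 306 reads in control replicate 1 but 26 in control replicate 2, against 13 and 20 after constriction. The normalised counts were 270 and 26.2 in the controls and 15.04 and 19.1 after constriction. Control replicate 1 stood alone, with 81.7% of the normalised count of the gene, and control replicate 2 was 1.38-fold above the higher constriction library. Means of 148 ± 172 (SD, n = 2) in controls and 17.1 ± 2.85 (SD, n = 2) after constriction gave a log2 difference of -3.04 ± 1.19 (SE). Without control replicate 1 it was -0.59. By replicate number it was -4.08 and -0.44.

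SMIM11A encodes a small integral membrane protein of little known function. In MDA-MB-231 it had 274 reads in control replicate 1, 29 in control replicate 2, and 19 and 10 after constriction. Normalised counts were 348 and 24.9 in the controls and 18.6 and 9.24 after constriction. Control replicate 1 again stood alone and held 86.8% of the normalised count. The mean was 186 ± 228 (SD, n = 2) in controls and 13.9 ± 6.60 (SD, n = 2) after constriction, with a log2 difference of -3.65 ± 1.32 (SE). Without control replicate 1 it was -0.80. By replicate number it was -4.16 and -1.34.

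**Figure D3:**
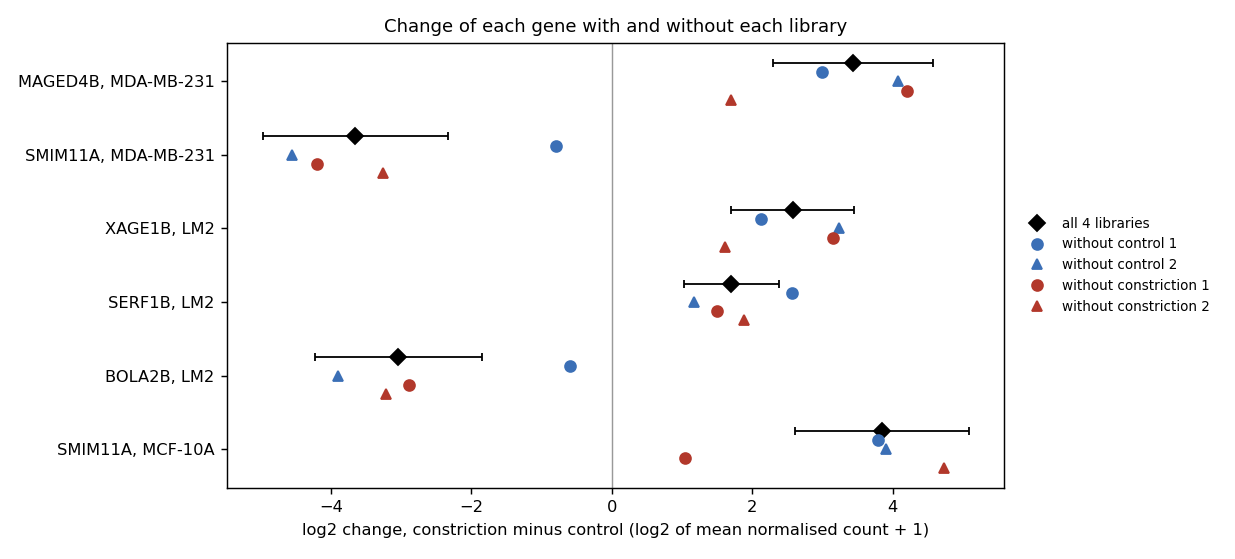
Log2 difference between constriction and control (x axis, log2 of mean normalised count + 1) for each gene with all 4 libraries (black diamond, bar for the SE) and with each library left out (blue for a control, red for a constriction library). SMIM11A in MDA-MB-231 and BOLA2B came closest to 0, at -0.80 and -0.59 without control replicate 1.

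The spread between replicates of these genes was set beside that of the listed genes whose normalised count averaged 10 or more, which were 259 for MDA-MB-231 and 52 for LM2. The control libraries of SMIM11A differed 13.9-fold, and 7 of the 259 genes (2.70%) had a larger ratio between controls. MAGED4B differed 5.74-fold between its constriction libraries, and 8 of 259 (3.09%) had a larger ratio there. In LM2, 4 of 52 genes (7.69%) exceeded the 10.3-fold ratio between the controls of BOLA2B. The larger of the 2 ratios of XAGE1B was 2.90, between its constriction libraries, and 28.8% of the listed genes exceeded it. The larger ratio of SERF1B was 2.64, between its controls, and 13 of the 52 exceeded it. A single library held a median of 40.4% of a gene's normalised count in MDA-MB-231 and 55.9% in LM2. Only 1 of the 259 MDA-MB-231 genes was more concentrated in its highest library than SMIM11A, and 6 were more so than MAGED4B. BOLA2B was exceeded by 3 of the 52 LM2 genes. These are ranks among genes selected on the same libraries, and no test was made of them.

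**Figure D4:**
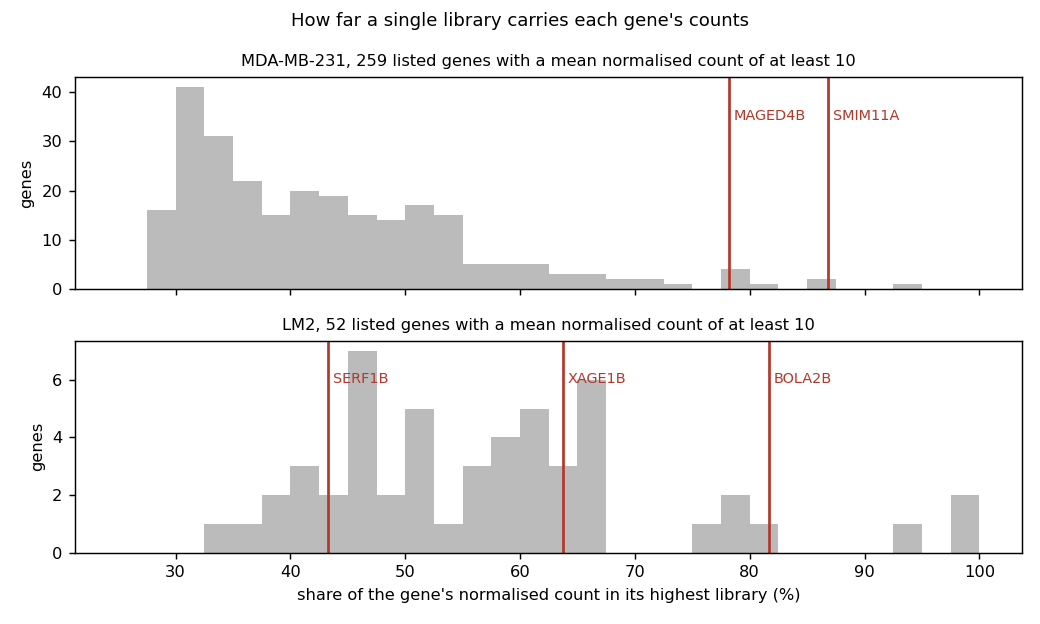
Number of listed genes (y axis) by the share of a gene's normalised count that its highest library holds (x axis, percent; 25% would be an even split), for genes whose normalised count averaged 10 or more. Red lines mark SMIM11A at 86.8% and MAGED4B at 78.2% in MDA-MB-231, and BOLA2B at 81.7%, XAGE1B at 63.8% and SERF1B at 43.3% in LM2.

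FPKM, which divides by gene length, allowed levels to be compared between genes of a table. In LM2 after constriction, the FPKM level of XAGE1B was 8.33 ± 5.26, that of SERF1B 3.24 ± 0.824 and that of BOLA2B 0.270 ± 0.0258 (SD, n = 2 each). XAGE1B and SERF1B did not differ beyond the spread of XAGE1B, and BOLA2B was below both. In LM2 controls the order was BOLA2B at 2.38 ± 2.80, XAGE1B at 1.39 ± 0.679 and SERF1B at 0.983 ± 0.656, and no neighbours in it differed beyond their spread. In MDA-MB-231 the FPKM level of MAGED4B was 0.354 and 2.05 after constriction and 0.0652 and 0.147 in controls. SMIM11A was at 0.0717 ± 0.0336 and 0.941 ± 1.15 (SD, n = 2 each) on the same scale. The deposited gene length counts all annotated exons, shared and unshared alike.

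SMIM11A was the only one of the 5 genes listed for MCF-10A as well, and there it had the opposite direction. It had 41 and 55 reads in the MCF-10A controls and 948 and 84 after constriction, which are normalised counts of 40.1, 43.4, 1143 and 86.9. The controls agreed within 1.08-fold, and constriction replicate 1 carried 87.0% of the normalised count. Such concentration was common for this line: the median share of the highest library was 68.6% over the 1209 listed genes whose normalised count averaged 10 or more, 242 of them (20.0%) were more concentrated than SMIM11A, and 175 (14.5%) had a larger ratio between constriction libraries. Its log2 difference was 3.85 ± 1.24 (SE), and 1.04 without constriction replicate 1. It was also 2.14 with TMM factors of the listed genes as scaling, under which the median of all listed MCF-10A genes moved by -0.52. Of the 2680 MCF-10A genes, 2594 (96.8%) had groups that did not overlap, and 94.5% of the genes were lower. Over the 8 libraries of both lines, on the FPKM scale, SMIM11A lay between 0.0479 and 0.563 in 6 and reached 1.75 in MDA-MB-231 control replicate 1 and 7.53 in MCF-10A constriction replicate 1. The 2 tables were normalised separately, and the difference between the lines was not tested.

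For each gene, the 2 genes of the same table with the closest pattern over the 4 libraries were found by the root mean square (RMS) difference of centred log2 values. For SMIM11A in MDA-MB-231 they were NSFP1 (RMS 0.36), an unprocessed pseudogene of NSF with 113 and 19 control reads and 12 and 8 after constriction, and RGPD5 (RMS 1.09). The BOLA2B pattern in LM2 was closest to that of TNXA (RMS 0.66), a duplicated pseudogene of TNXB, and to NAIP (RMS 0.67), a gene of the same 5q13 block as SERF1B. The normalised count of NAIP was 167 and 32.3 in LM2 controls and 34.7 and 17.2 after constriction, so its groups overlapped. MAGED4B was closest to the processed pseudogene ATP6V0CP4 (RMS 0.24) and PRR26 (RMS 0.42), XAGE1B to FAM222A-AS1 (RMS 0.47) and AL132838.1 (RMS 0.51), and SERF1B to AC025031.2 (RMS 0.48) and SNORD12C (RMS 0.51). In MCF-10A, SMIM11A was closest to IGFBP4 (RMS 0.03) and AC092683.1 (RMS 0.19). A likeness over 4 libraries is a description of these libraries only.

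Lists of related genes were searched for in the tables. Of 19951 annotated protein-coding genes, expressed or not, 0.722% were listed for MDA-MB-231, 0.155% for LM2 and 5.96% for MCF-10A. Of 33 neighbours in the same duplicated blocks, 0 were listed in MDA-MB-231, 1 in LM2 (NAIP) and 1 in MCF-10A (NPIPB12, log2 difference -2.25 ± 0.77). Of 14 other genes of the same families, 0 were listed in any table. Of 115 genes from other known copy pairs, 5 (4.35%) were listed in MDA-MB-231, 2 (1.74%) in LM2 and 4 (3.48%) in MCF-10A, and no test was made since the list was written with earlier results known. In MDA-MB-231, 4 of them were lower and 1 higher, with a median log2 difference of -1.28 beside 1.08 over all 381 listed genes. POLR2J3, a paralog of an RNA polymerase II subunit, was the higher one, at 109 ± 19.1 after constriction and 42.5 ± 4.42 in controls (normalised counts, SD, n = 2). The lower ones were SIK1, a salt-inducible kinase, the nuclear pore paralog RGPD5, the golgin GOLGA8B and the annexin ANXA8L1, with log2 differences of -1.32, -1.40, -0.55 and -1.28. SIK1 had 572 reads in control replicate 2 and 73 in control replicate 1, and its groups overlapped. In LM2, where 46.4% of all listed genes were lower, TBC1D3G had a log2 difference of -2.05 ± 0.76 (SE). U2AF1L5, annotated in the reference as a copy of the splicing factor gene U2AF1, had -1.29 ± 1.02 (SE), and its groups overlapped. In MCF-10A all 4 were lower, as were 94.5% of the genes there: LRRC37A3, the complement gene C4B, NUTM2B and POLR2J3. Both constriction libraries of that line had 0 reads of the last 2, against 10 and 21 and 5 and 41 in the controls.

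Finally, all listed genes were searched for windows that recur in a gene at another place. In MDA-MB-231, 22 of the 368 genes with a window (5.98%) had at least 50% of their windows elsewhere, and in LM2 12 of 90 (13.3%). Of the 22, 15 were lower and 7 higher after constriction, beside 106 lower and 240 higher among the other 346. Of the 12 in LM2, 7 were lower and 5 higher, beside 36 and 42. For none of the 34 listings was the gene that shares most of its windows listed in the same table. Among the other genes it was listed for 5 of 346 in MDA-MB-231 and 2 of 78 in LM2. Of these others, 311 in MDA-MB-231 and 68 in LM2 had no window elsewhere, so no such gene could be listed for them. The shares over all others are thus no background for the 34 listings. The search was chosen after the values of the 5 genes were known, and no test was made.

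**Figure D5:**
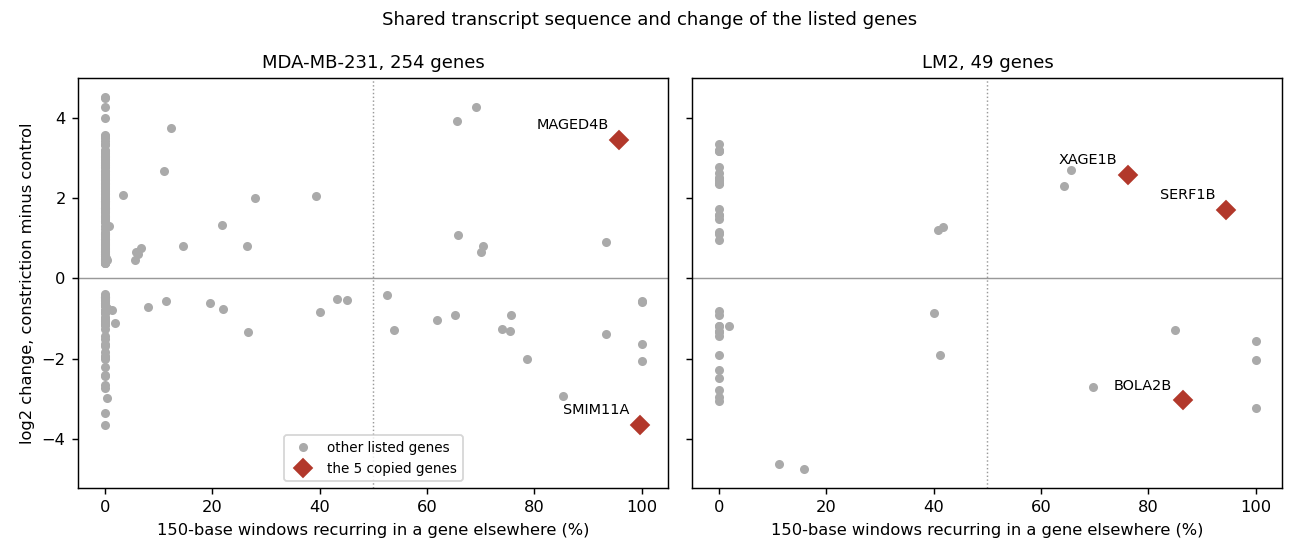
Log2 difference between constriction and control (y axis) of each listed gene whose normalised count averaged 10 or more, against the share of its 150-base windows that recur in a gene elsewhere (x axis, percent), with the 5 genes in red and the dotted line at 50%. The 5 genes have 76.3% to 99.7% of their windows elsewhere and lie on both sides of 0.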

How the data were processed

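Per the study's methods and the submitters' processing notes, reads from poly A libraries were filtered with fastp, aligned to GRCh38 (hg38) with HISAT2 2.0.5 and counted per gene with featureCounts 1.5.0-p3, which gave the deposited counts. The deposited normalised counts (signal) are the authors' counts divided by a DESeq2 (1.20.0) size factor per library within a cell line, and the deposited FPKM values are the authors' counts per gene length and library. The deposited p-values, adjusted p-values and log2 fold changes are those of the authors' own comparison and were not used, except that all p-values were checked to be under 0.05. GO term tables were not used.

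The members and gene lists were chosen with earlier results of these data known. Log2 differences are of log2(mean normalised count + 1), with SE from the 2 libraries per group. No test was made, because listing rests on the same contrast. Named genes were the 5 members, their twins, listed genes of the lists block neighbours, same family and other copy pairs, and the 2 closest patterns per member at a mean of at least 10. Windows were compared with GENCODE version 29 transcripts on both strands, counting genes that overlap the same place as not elsewhere, and alignments were made with Biopython 1.88. Scripts were tested on simulated data. Alternatives were pseudocounts of 0.5 and 10, library totals (FPKM), TMM factors (edgeR 4.0.16), the mean of log2 values and each library left out. The LM2 constriction library taken as replicate 2 carries number 2 in its title and number 1 in its description.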

Additional observations from a re-analysis of the deposited data

Results flagged for a closer look

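SMIM11A differed in opposite directions between cell lines. Its log2 difference between constriction and control was -3.65 in MDA-MB-231 and 3.85 in MCF-10A, and every constriction library lay below both controls in the first line and above both in the second. The difference between the lines was not tested. In each line 1 library carried most of the count, control replicate 1 in MDA-MB-231 (86.8%) and constriction replicate 1 in MCF-10A (87.0%), and without it the values were -0.80 and 1.04.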

How the results depend on the processing

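The groups of each member do not overlap, so its sign could hardly change and says nothing of stability. The 30 recomputed log2 differences with another scaling, pseudocount or mean moved by less than the gene's own spread between replicates. That spread was wide, from 1.02 to 2.73 on the log2 scale, so this says little of stability either. SMIM11A in MCF-10A stayed within it at 2.14 with TMM factors, beside 3.85. With any 1 library left out they ranged from 1.69 to 4.20 for MAGED4B, from -4.55 to -0.80 for SMIM11A in MDA-MB-231, from 1.62 to 3.23 for XAGE1B, from 1.17 to 2.56 for SERF1B, from -3.91 to -0.59 for BOLA2B and from 1.04 to 4.74 for SMIM11A in MCF-10A. The value nearest to 0 for SMIM11A in MDA-MB-231 and BOLA2B was that without control replicate 1, and for SMIM11A in MCF-10A that without constriction replicate 1. TMM factors moved the median of all listed genes by -0.39 in MDA-MB-231, 0.09 in LM2 and -0.52 in MCF-10A. Among genes whose normalised count averaged 10 or more, the number of listed genes whose groups did not overlap was 43 of 52 in LM2 and 1123 of 1209 in MCF-10A, because fewer genes were counted. No paired test was made. With 2 libraries per group and counts for the listed genes alone, neither the twin copies nor the genes outside the tables could be examined. The members had at least 10 reads in every library, which is few where the groups lie close together.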

Other observations

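Among the listed genes with at least 50% of their windows elsewhere were 8 processed pseudogenes in MDA-MB-231, which are intronless copies of spliced RNA, such as EEF1A1P5, RPL21P16, RPL39P3 and H3F3AP4. All 8 were lower after constriction, with a median log2 difference of -0.91, and -0.75 without control replicate 1, which was the highest library of all 8. It was also the highest of 38 of 75 lower genes with less than 50% of their windows elsewhere and an average normalised count of 10 or more. The largest difference was that of RPL39P3, at -2.06, and the smallest that of EEF1A1P5, at -0.41. RPL39P3 was also listed in LM2, at -1.56. The 12 other genes of this kind in MDA-MB-231, without MAGED4B and SMIM11A, were divided evenly, with 6 higher and 6 lower. Among the higher ones was EIF3CL, a copy of the translation initiation factor gene EIF3C with 93.4% of its windows elsewhere, at 0.91. Of the 346 listed genes with less than 50% of their windows elsewhere, 106 were lower. The genes of this paragraph were named after their values were seen, and no test was made.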
